A study of Mus musculus with 10 samples.

Results

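Cyclin D1 (Ccnd1) and 9 other genes of the G1 phase of the cell cycle were examined in RNA-sequencing counts of whole mouse lung. They are the D-type cyclins Ccnd1, Ccnd2 and Ccnd3, the partner kinases Cdk4 and Cdk6, the kinase inhibitors Cdkn1a, Cdkn1b and Cdkn1c, and the retinoblastoma family genes Rb1 and Rbl2. All 10 were found by gene symbol among the 24059 symbols of the table. Ccnd1 was chosen by its values in these same counts, lower in every FO mouse than in any CO mouse, so its difference between diets is given below as a description with no test. The other genes were taken for their role in the same pathway, and their differences were tested.

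D-type cyclins are made when growth signals reach a cell. They bind and activate the kinases Cdk4 and Cdk6, which phosphorylate the retinoblastoma protein and its relatives. Phosphorylation releases E2F transcription factors, and the cell passes from G1 into DNA synthesis. The Cip/Kip proteins encoded by Cdkn1a (p21), Cdkn1b (p27) and Cdkn1c (p57) bind cyclin and kinase pairs and restrain this step. Most cells of the adult lung rest outside the cycle and divide mainly during repair.

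The lungs came from female C57Bl/6 mice that were put on a purified high-fat diet at 6 weeks of age, were fed it for 8 weeks and were 14 weeks old at tissue collection. The FO group (n = 5) ate a diet enriched in menhaden fish oil, a source of long-chain n-3 polyunsaturated fatty acids, and the CO group (n = 5) ate a diet enriched in saturated coconut oil. The series' design text gives 19% fat and 0.2% cholesterol for both diets, while the composition list for the diets has less cholesterol in FO than in CO. All mice were thus on a high-fat diet, and no group on ordinary chow was analysed here. Both groups also had their airway reactivity measured, and the lungs were flushed with PBS before RNA was taken.

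The files held 229766 to 1124963 counts per mouse. A single ribosomal RNA precursor gene, Rn45s, took 21.8 to 87.0% of them, which left 45177 to 473254 counts for all other genes. The 10 G1 genes together held 4860 counts, from 93 in FO mouse 3 to 1158 in CO mouse 4, and Ccnd1 and Ccnd2 made up 86.3% of these. CO mouse 4 also had the lowest Rn45s share. Levels are given as CPM, the count of a gene over the library total on the usual scale of that unit, after TMM scaling, which sets the mice to a common level over most genes. The defining lung markers were present, with means over the 10 mice of 999.8 CPM for the surfactant gene Sftpc and 1216 CPM for the club cell gene Scgb1a1.

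The proteins of the D-type cyclins share a short motif near their start, Leu-x-Cys-x-Glu, by which they bind the retinoblastoma protein. Because this motif joins the cyclins to the Rb family in the gene set, the first 60 coding bases of the 3 genes are shown (GENCODE M21 models on GRCm38, the same assembly as mm10), with the bases that encode the motif in capitals.
Ccnd1, chr7:144939634-144939693, minus strand: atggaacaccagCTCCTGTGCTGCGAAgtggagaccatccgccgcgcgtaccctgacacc
Ccnd2, chr6:127150714-127150773, minus strand: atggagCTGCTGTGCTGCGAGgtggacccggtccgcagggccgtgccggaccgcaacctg
Ccnd3, chr17:47593655-47593714, plus strand: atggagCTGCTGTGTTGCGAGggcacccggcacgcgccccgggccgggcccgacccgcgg
The motif lies at coding bases 13 to 27 in Ccnd1 and 7 to 21 in the other two. Within it, Ccnd2 differed from Ccnd1 at 2 bases and Ccnd3 differed from Ccnd1 at 3. Over the whole coding sequence Ccnd1 was 71.3% identical to Ccnd2 and 66.7% identical to Ccnd3, and the longest stretch it shared exactly with either was 20 bases.

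Ccnd1 (chr7:144929931-144939925, minus strand) was lower in the lungs of FO mice than in those of CO mice. Its level averaged 322.4 ± 35.5 CPM in FO lungs against 491.6 ± 62.7 CPM in CO lungs (SD, n = 5 each), a log2 fold change of -0.61, or 0.653 of the CO level. In FO mice 1 to 5 the values were 360.2, 320.2, 341.9, 265.6 and 324.2 CPM. In CO mice 1 to 5 they were 498.4, 415.5, 457.8, 584.7 and 501.4 CPM. Every FO mouse therefore lay below every CO mouse, and the highest FO mouse and the lowest CO mouse were 1.15-fold apart. These values chose the gene and nothing is read from them, while 0.205% of the 2438 genes tested had all FO mice below all CO mice. The FO values rest on 1099 counts and the CO values on 1301, from 53 counts in FO mouse 3 to 557 in CO mouse 4.

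The gap between the groups depended on how the ribosomal RNA was treated. Expressed as CPM of the counts outside Rn45s, without TMM scaling, Ccnd1 was at 1054 ± 154 for FO mice, with a range of 885 to 1250, and at 1614 ± 227 for CO mice, with a range of 1402 to 1984 (SD, n = 5), and again no FO mouse reached a CO mouse. As CPM of all counts, Rn45s included, the groups overlapped at 285 ± 107 against 647 ± 539, and 2 of 5 FO mice lay below all CO mice. Leaving out each mouse in turn gave log2 fold changes between -0.69 and -0.53. Of the exon bases of Ccnd1, 21.9% also belong to the neighbouring gene LTO1 in the annotation, and since the strand setting of the counting is not given in the sources used here, reads from those bases may not be told apart.

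**Figure D1:**
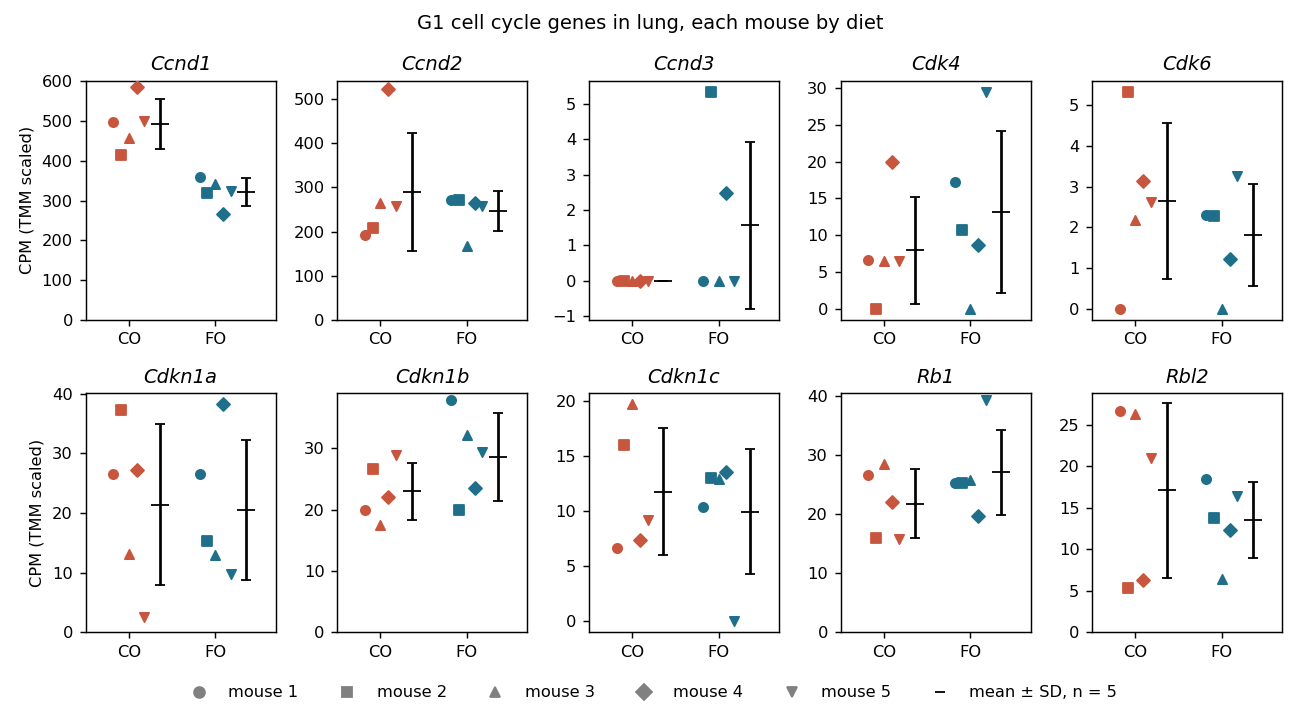
Each panel shows TMM-scaled CPM (y axis, from its own scale) of 1 gene in the CO and FO mice, with 1 symbol per mouse and the mean ± SD (n = 5) beside each group. Ccnd1 is the 1 gene of the 10 whose diet groups do not overlap, and CO mouse 4 stands above the rest for Ccnd2 at 522.8 CPM.

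The second D-type cyclin, Ccnd2 (chr6:127125162-127152193, minus strand), did not pass the test for a diet difference. Its level was 271.6, 271.3, 167.7, 264.4 and 258.7 CPM in FO mice 1 to 5 and 192.7, 207.7, 265.1, 522.8 and 258.6 CPM in CO mice 1 to 5. The groups overlapped, with CO mouse 4 far above and FO mouse 3 below the other mice. The means were 246.7 ± 44.5 and 289.4 ± 134.2 CPM (SD, n = 5), and the log2 fold change was -0.24 ± 0.26 (SE, 95% interval -0.80 to 0.31, edgeR adjusted p = 0.998, exact permutation p = 0.690). Without CO mouse 4 the log2 fold change of Ccnd2 was 0.11, so the sign of the difference rested on that mouse. The interval allows an FO level from 0.576 to 1.24 of the CO level, which includes the ratio seen for Ccnd1.

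Ccnd3 (chr17:47505051-47599691, plus strand), the D-type cyclin best known from lymphoid cells, was near the limit of detection. FO mouse 2 had 7 counts, FO mouse 4 had 2, and the other 3 FO mice and all 5 CO mice had 0. Pooled over the group this is 2.61 CPM in the FO mice, against a CO level that 0 counts allow to reach 1.20 CPM (3 counts over the group). The first value is 2.18 times the second. That ratio leaves out the counting error of the 9 FO counts and the spread between FO mice, so it is not a lower limit. Among genes with any count, Ccnd3 passed an unadjusted threshold of 0.05 in edgeR, but its adjusted p was 0.905 and the exact permutation p was 0.444. All 9 counts came from 2 mice, and the call was lost without FO mouse 2 and in DESeq2.

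Within the D-type cyclins, the make-up of the counts can be compared in each mouse without any scaling. Ccnd1 supplied 57.0, 53.6, 67.1, 49.9 and 55.6% of D-type cyclin counts in FO mice 1 to 5. In CO mice 1 to 5 it supplied 72.1, 66.7, 63.3, 52.8 and 66.0%. The groups overlapped widely, with all CO mice but mouse 1 inside the FO range and all FO mice but mouse 4 inside the CO range. The means were 56.7 ± 6.42% and 64.2 ± 7.12% (SD, n = 5), and no test was made because the share holds Ccnd1.

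**Figure D2:**
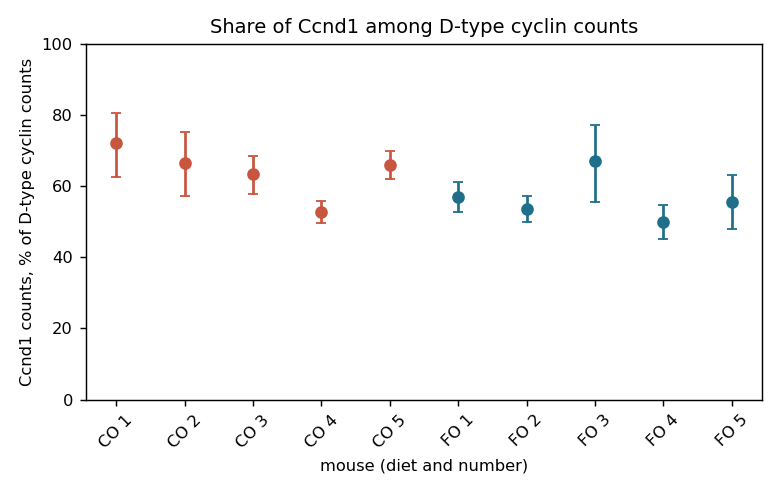
Share of Ccnd1 (y axis, % of the counts of the 3 D-type cyclins) in each mouse (x axis), with exact 95% binomial intervals that cover counting error only. FO mice run from 49.9 to 67.1% and CO mice from 52.8 to 72.1%, so the ranges overlap.

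Only 4 of the 10 genes, Ccnd1, Ccnd2, Cdkn1b and Rb1, held enough counts to pass the filter of edgeR. Of the 3 other than Ccnd1, 0 passed an unadjusted threshold of 0.05 in edgeR or in DESeq2, against 2.91% of the 2438 genes tested. The remaining 6 were read from a fit of all 14161 genes with any count, where 4.15% of genes passed. Over both fits 1 of 9 genes (Ccnd3) passed unadjusted in edgeR and 0 passed in DESeq2, and 0 passed after adjustment in either tool. The log2 fold changes were above 0 for 5 of these 9 genes and below 0 for 4.

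The partner kinases were both scarce. Cdk4 (chr10:127063534-127067920, plus strand) was at 17.3, 10.7, 0, 8.65 and 29.5 CPM in FO mice 1 to 5 and at 6.65, 0, 6.57, 19.9 and 6.56 CPM in CO mice 1 to 5. Both groups held a mouse at 0 and they overlapped throughout. The means were 13.2 ± 11.0 and 7.95 ± 7.29 CPM (SD, n = 5), from 45 and 28 counts, and the log2 fold change was 0.45 ± 0.52 (SE, 95% interval -0.57 to 1.47, edgeR adjusted p = 0.959, exact permutation p = 0.492). Without CO mouse 4 the log2 fold change of Cdk4 was 1.30 and passed the unadjusted threshold, so the result for this gene moved with that mouse. Cdk4 shares 31.2% of its exon bases with Tspan31.

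Cdk6 (chr5:3341485-3531008, plus strand), the other kinase of the pair, had 7 counts in each diet group and at most 3 in any mouse. At that depth no fold can be given, and a difference between diets was not detectable. Its level was 1.82 ± 1.25 CPM in FO mice and 2.66 ± 1.91 CPM in CO mice (SD, n = 5, exact permutation p = 0.516). As a share of the counts of the 2 kinases, Cdk4 made up 87.0 ± 3.28% in the 4 FO mice with any such count and 66.6 ± 38.8% in the 5 CO mice (exact permutation p = 0.389). The shares of CO mouse 1 (100%) and CO mouse 2 (0%) rest on 1 count each. With counts summed over mice the shares were 86.5% in FO and 80% in CO.

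The Cip/Kip inhibitors did not pass the test in either direction. Cdkn1a (chr17:29090976-29100727, plus strand), the p21 gene induced by p53, was at 26.5, 15.3, 12.9, 38.3 and 9.82 CPM in FO mice 1 to 5 and at 26.6, 37.3, 13.1, 27.3 and 2.62 CPM in CO mice 1 to 5. Mice of both groups were spread over nearly the same range. The means were 20.6 ± 11.7 and 21.4 ± 13.6 CPM (SD, n = 5), while the edgeR log2 fold change, which gives deeper mice more weight, was 0.29 ± 0.43 (SE, 95% interval -0.54 to 1.13, adjusted p = 0.981, exact permutation p = 0.881).

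Cdkn1b (chr6:134920401-134925513, plus strand), whose p27 protein holds resting cells out of the cycle, was the inhibitor measured with the least spread. It stood at 38.0, 19.9, 32.3, 23.5 and 29.5 CPM in FO mice 1 to 5 and at 19.9, 26.6, 17.5, 22.0 and 28.9 CPM in CO mice 1 to 5. Of the FO mice, 3 lay above all CO mice, and the other two lay within the CO range. The log2 fold change was 0.25 ± 0.30 (SE, 95% interval -0.39 to 0.89, edgeR adjusted p = 0.998, exact permutation p = 0.190), with means of 28.6 ± 7.15 and 23.0 ± 4.69 CPM (SD, n = 5). No annotated gene shares exon bases with Cdkn1b.

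Cdkn1c (chr7:143458339-143461050, minus strand), the imprinted p57 gene, was at 10.4, 13.0, 12.9, 13.6 and 0 CPM in FO mice 1 to 5 and at 6.65, 16.0, 19.7, 7.35 and 9.19 CPM in CO mice 1 to 5. FO mouse 5 had no count and the other FO mice lay close together inside the CO range. The means were 9.97 ± 5.71 and 11.8 ± 5.77 CPM (SD, n = 5), from 39 and 27 counts, and the log2 fold change was -0.06 ± 0.55 (SE, 95% interval -1.14 to 1.01, edgeR adjusted p = 0.996, exact permutation p = 0.690). Of its exon bases 30.3% also belong to Gm44732. The share of Cdkn1a among Cip/Kip counts was 33.0 ± 11.2% in FO mice and 35.5 ± 18.9% in CO mice (exact permutation p = 0.865), so the make-up of this group differed by less than the spread between mice.

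The retinoblastoma genes, which encode the substrates of the cyclin D kinases, also overlapped between diets. Rb1 (chr14:73183673-73325822, minus strand) was at 25.3, 25.2, 25.8, 19.8 and 39.3 CPM in FO mice 1 to 5 and at 26.6, 16.0, 28.5, 22.0 and 15.7 CPM in CO mice 1 to 5. FO mouse 5 was the highest of all and the remaining FO mice lay within the CO range. The means were 27.1 ± 7.26 and 21.8 ± 5.87 CPM (SD, n = 5), with a log2 fold change of 0.28 ± 0.31 (SE, 95% interval -0.37 to 0.93, edgeR adjusted p = 0.998, exact permutation p = 0.206).

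Rbl2 (chr8:91070057-91123844, plus strand) encodes p130, the family member that pairs with E2F4 in resting cells. Its values were 18.4, 13.8, 6.45, 12.4 and 16.4 CPM in FO mice 1 to 5 and 26.6, 5.33, 26.3 and 6.30 CPM in CO mice 1 to 4, with CO mouse 5 in the upper set at 16 counts. The CO mice fell into a high and a low set with all 5 FO mice between, and the log2 fold change was -0.18 ± 0.47 (SE, 95% interval -1.11 to 0.75, edgeR adjusted p = 0.995, exact permutation p = 0.786). The share of Rb1 in the counts of Rb1 and Rbl2 was 66.9 ± 8.66% in FO mice and 59.5 ± 15.8% in CO mice (exact permutation p = 0.381).

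**Figure D3:**
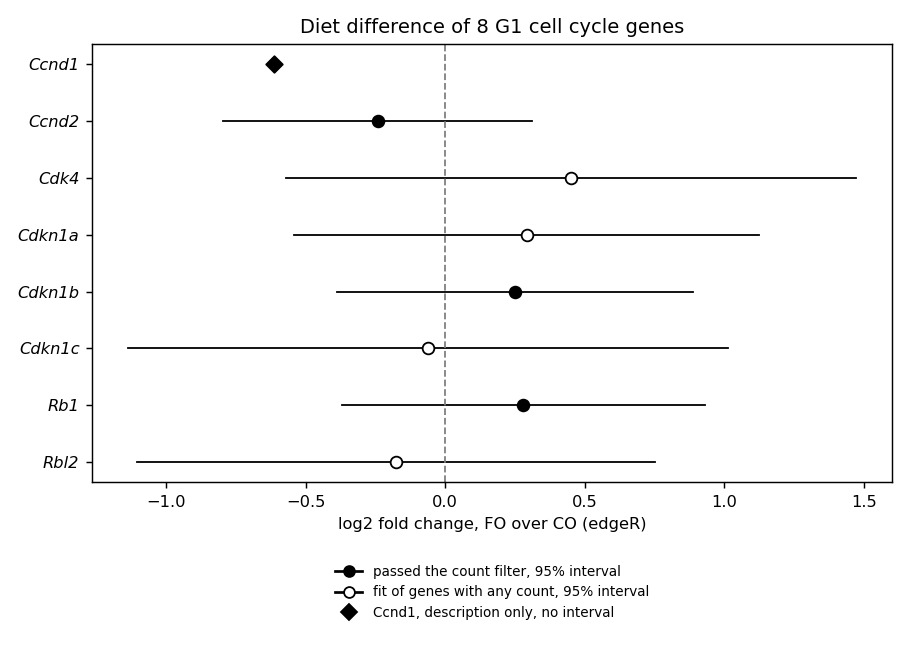
Log2 fold change of FO over CO (x axis, edgeR) for 8 of the 10 genes (y axis), with 95% intervals for the 7 that were tested. Filled circles passed the count filter and open circles come from the wider fit without that filter. Every interval drawn crosses 0, Ccnd1 is drawn at -0.61 as a description, and Ccnd3 and Cdk6 are left out because their counts are at or near 0. The interval of Ccnd3, 0.89 to 6.22, does not cross 0 and rests on 9 counts in 2 mice.

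The levels of the 10 genes were set in order per kilobase of exon, since a longer transcript gives more counts. Ccnd1 led at 108.8 ± 27.1 CPM per kb (SD, 10 mice), with 86.2 in FO and 131.4 in CO mice. Ccnd2 followed at 39.9 ± 14.4 CPM per kb. Ccnd1 lay above Ccnd2 in 10 of 10 mice, with a mean log2 difference of 1.47, given as a description because Ccnd1 was chosen by these counts. Ccnd2 lay above Cdkn1a in 10 of 10 mice by 2.50 on the log2 scale (exact sign-flip permutation test, p = 0.00586 adjusted over 9 neighbouring pairs). The 9 pairs include the described pair of Ccnd1 and Ccnd2. The order was set from the same 10 mice, so which gene of a pair is higher was not fixed in advance.

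The next 6 genes lay close together. Cdkn1a was at 7.72 ± 4.40, Cdkn1b at 5.67 ± 1.41, Cdkn1c at 5.60 ± 2.83, Rb1 at 5.25 ± 1.47, Cdk4 at 5.15 ± 4.49 and Rbl2 at 3.10 ± 1.60 CPM per kb (SD, 10 mice). None of the 5 neighbouring pairs in this stretch passed the test, with exact sign-flip permutation p-values from 0.285 to 0.992 after adjustment, so their order was not resolved per exon length. Rbl2 lay above Ccnd3 in 10 of 10 mice by 2.15 on the log2 scale (exact permutation, adjusted p = 0.00586). Only 2 mice had a Ccnd3 count. In the others its level in the comparisons with Rbl2 and Cdk6 was set by the prior count of 0.5, the depth and the gene length, so the size of these differences was not measured. Ccnd3 at 0.320 ± 0.729 and Cdk6 at 0.194 ± 0.138 CPM per kb came last and were not told apart (exact permutation, adjusted p = 0.0747). Over coding length instead of exon length, Cdkn1b lay above Cdkn1c by 2.16 and Cdk4 above Rbl2 by 1.23 on the log2 scale (exact permutation, adjusted p = 0.00439 for each), and Rbl2 and Ccnd3 no longer differed past the threshold (exact permutation, adjusted p = 0.0598).

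**Figure D4:**
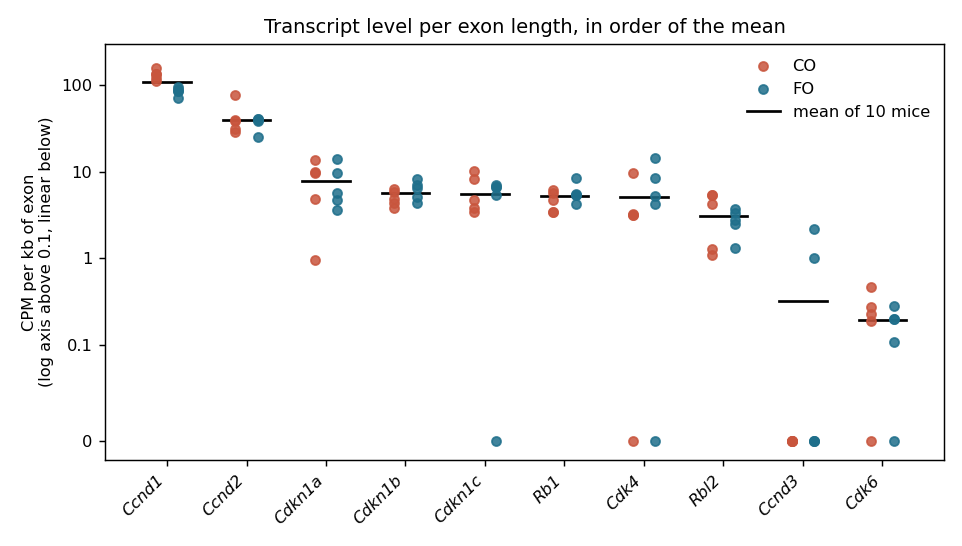
CPM per kb of exon (y axis, log scale above 0.1 and linear below) for the 10 genes in order of their mean over 10 mice (black bars), with 1 point per mouse in each diet. Ccnd1 and Ccnd2 stand at 108.8 and 39.9, 6 genes sit between 3.10 and 7.72, and Ccnd3 and Cdk6 lie near 0.

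The genes that act with the D-type cyclins were read from 5 lists. Of 26 G1/S partners, such as E-type cyclins, E2F factors and INK4 inhibitors, 2 passed the count filter. Of these, 0 were called in edgeR at an unadjusted 0.05, beside 2.91% of the 2438 genes tested. Over the 26 with any count 0 were called, beside 4.15% of all genes in that fit. With so few genes, 0 calls lies near those shares and nothing is read from it. The median log2 fold change of the 26 was 0.12 beside 0.05 for all genes in that fit. Cdk7, the kinase that activates other cyclin-dependent kinases, was at 37.9 ± 8.82 in FO and 46.0 ± 20.0 CPM in CO mice (SD, n = 5, log2 fold change -0.14). Tfdp2, a partner of E2F factors, was at 33.1 ± 7.34 and 38.4 ± 10.5 CPM (log2 fold change -0.36).

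Of 20 genes for the turnover of cyclin D and p27, 19 were in the table, 8 passed the filter and 0 were called in edgeR, with a median log2 fold change of -0.00. Gsk3b, whose kinase marks cyclin D1 for export and degradation, was at 95.9 ± 19.7 CPM in FO and 85.5 ± 22.6 CPM in CO mice (SD, n = 5, log2 fold change 0.14). The co-chaperone gene Cdc37, whose product loads Cdk4 onto Hsp90, was at 77.3 ± 15.2 and 99.9 ± 10.7 CPM (log2 fold change -0.35, edgeR adjusted p = 0.998, exact permutation p = 0.0317, not adjusted for the 12 list genes given that test). Cdc37 was not called in edgeR and its groups overlapped.

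Of 45 upstream regulators, which carry growth signals to the Ccnd1 promoter, 24 passed the filter, 1 was called higher in FO and 0 lower, a share near the 2.91% of all genes tested. The called gene was Junb, a subunit of the AP-1 factor. It stood at 17.3, 40.5, 45.2, 46.9 and 65.5 CPM in FO mice 1 to 5 and at 39.9, 32.0, 17.5, 13.6 and 17.1 CPM in CO mice 1 to 5. FO mouse 1 lay among the lower CO mice, so the groups overlapped, and the log2 fold change was 1.02 ± 0.39 (SE, edgeR adjusted p = 0.998, exact permutation p = 0.0635). The call was lost without FO mouse 2, FO mouse 4 or CO mouse 4. The most abundant genes of the list, the kinase gene Mapk3 at 572.4 ± 141.2 against 496.0 ± 95.6 CPM and the beta-catenin gene Ctnnb1 at 222.3 ± 54.8 against 274.3 ± 89.7 CPM (SD, n = 5), were not called.

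Genes of S phase and mitosis, the steps after the G1 checkpoint, were scarce in these lungs. None of the 36 passed the count filter, 2 (Ccnb1 and Aurkb) had no count in any mouse, and the median gene had 18 counts over the 10 mice. Top2a, a DNA topoisomerase of dividing cells, was the highest at 144 counts in all. Of the 34 with any count, 1 was called higher in edgeR and 0 lower, a share below the 4.15% of all genes in that fit. Of these 34, 23 had log2 fold changes above 0, and the median was 0.34 beside 0.05 for all genes in that fit. The called gene, Pola1, the catalytic subunit of DNA polymerase alpha, is named after its values were seen. It was at 18.4, 16.0, 38.7, 9.88 and 26.2 CPM in FO mice and at 6.65, 0, 8.76, 7.35 and 6.56 CPM in CO mice, from 59 and 17 counts, with no overlap (log2 fold change 1.48 ± 0.54, SE, edgeR adjusted p = 0.905). The share of all genes in that fit with every FO mouse above every CO mouse was not counted, so nothing is read from the lack of overlap.

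Of 16 p53 targets, 3 passed the filter and 0 were called in edgeR, beside 2.91% of all genes tested. In the wider fit, where 4.15% of all genes were called, 2 of the 16 were called higher and none lower, namely Rprm with 11 counts in FO and 1 in CO mice and Sesn2 with 4 and 0 counts, both named after their values were seen and both near the floor. Mdm2, the ligase gene that p53 induces to limit itself, was at 41.0 ± 6.60 and 39.7 ± 12.1 CPM (SD, n = 5). The antiproliferative gene Btg2 was at 24.5 ± 13.0 and 37.8 ± 24.4 CPM. Neither of these abundant targets was called, like Cdkn1a above.

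Across the 10 mice, the genes whose log2 CPM followed that of Ccnd1 most closely among 2434 genes were Psip1 (Pearson r = 0.888, Spearman rho = 0.903), Evi5 (0.838 and 0.879), Wwtr1 (0.834 and 0.879), Tmem59 (0.800 and 0.794) and Zyg11b (0.771 and 0.758). These are descriptions of the 10 mice, which share their diets, their scaling and unequal depth. Without the mice farthest from the median of Ccnd1, CO mouse 4 and FO mouse 4, the r values lay between 0.648 for Zyg11b and 0.875 for Evi5. With the diet means removed they ran from 0.375 for Zyg11b to 0.746 for Wwtr1, which encodes the Hippo pathway coactivator TAZ. Of the other G1 genes, the 3 that passed the filter had r = 0.355 for Ccnd2, at rank 278, -0.246 for Rb1 and -0.275 for Cdkn1b, and with the diet means removed 0.423, 0.319 and 0.306. For the remaining 6, which did not pass the filter, no correlation with Ccnd1 was computed.

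Markers of 12 lung and neighbouring cell types were read beside these results, since in whole lung fewer cells of a type and less RNA per cell cannot be told apart. The summed level of every list overlapped between the diets. The endothelial list, led by Pecam1, ran from 277 to 609 CPM in FO mice and from 326 to 508 CPM in CO mice. The neutrophil list, 6 of 7 genes of which were in the table and which S100a9 led, stood apart most, at 51.2 to 301.5 CPM in FO mice and 26.6 to 58.6 CPM in CO mice, with 4 of 5 FO mice above all CO mice. Of the 36 single markers that passed the filter, 2 were called higher in FO (S100a9 and the smooth muscle actin gene Acta2) and 1 lower (Akap5, of the alveolar type 1 list). Over all 2438 genes tested, 2.91% were called. S100a9 was at 74.6 ± 52.0 in FO and 13.8 ± 5.19 CPM in CO mice (SD, n = 5, log2 fold change 2.27, edgeR adjusted p = 0.377). Its ranges were 22.9 to 158.8 CPM in FO mice and 5.33 to 18.4 CPM in CO mice. Acta2 ran from 12.9 to 48.2 CPM in FO mice and from 5.33 to 26.6 CPM in CO mice (log2 fold change 0.99, edgeR adjusted p = 0.998), and its groups overlapped. Akap5 moved in the direction of Ccnd1, at 215.9 ± 22.5 in FO and 410.6 ± 263.9 CPM in CO mice (log2 fold change -0.96, edgeR adjusted p = 0.998), with overlap and with CO mice 4 and 5 highest at 771.6 and 606.4 CPM. The part of cell make-up in the Ccnd1 values was not tested. Of the defining alveolar type 1 markers Aqp5 was at 0 in every mouse, as were all 6 globin genes of the erythroid list.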

How the data were processed

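RNA from flushed whole lung of 10 mice (5 FO, 5 CO) was sequenced as single-end reads. Per the study's methods and the submitters' processing notes, the authors aligned reads to mm10 with STAR 2.4.0f1, sorted them with SAMtools 0.1.19 and counted them per gene with HTSeq. The deposited values are raw counts per gene symbol. Libraries were made with TruSeq RNA v2 or riboZero kits, and which mouse had which is not given in the sources used here, nor are the annotation, strand setting or read length. The kit can change the share of ribosomal RNA and of transcripts without a poly(A) tail.

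Counts were fitted for all genes with the quasi-likelihood test of edgeR 4.0.16 in R 4.3.3 (TMM scaling, default filter of 10 counts and 15 in total). A call is an unadjusted p under 0.05, the threshold of the study, with Benjamini-Hochberg adjusted p beside it. Genes below the filter were read from the same fit over the 14161 symbols with any count. DESeq2 1.42.0, other scalings and filters, a replicate block and leaving out mice were alternatives. Single genes were also tested by two-sided exact permutation of log2 CPM (prior count 2; 252 assignments) for the 9 G1 genes other than Ccnd1 and, beyond the plan, for the 12 list genes named, of which 2 are printed, all without adjustment, and neighbours in the order of levels by exact sign flips (1024 assignments, prior count 0.5). Intervals of shares are exact binomial (Clopper-Pearson), and these and the floor of 3 counts cover counting error only. Within a diet the labels tell the mice apart only by number. The p-values measure the spread between these samples. The fit was tested on simulated data.

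The G1 genes, the 5 lists and the cell type markers were chosen with earlier results of these data known. Named from each list were up to 4 genes called with the smallest p and the 2 with the highest mean CPM, and the 5 genes most correlated with Ccnd1. Positions, exon lengths and sequences are from GENCODE M21 (GRCm38).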

Additional observations from a re-analysis of the deposited data

Results flagged for a closer look

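In 3 of the 20 groups formed by the 10 genes and 2 diets, 1 mouse lay far from the other 4 (gap to the nearest mouse over the whole range above 0.71, Dixon's 95% value for 5 samples), where chance gives about 1. For Ccnd2, FO mouse 3 was the lowest of its group at 167.7 CPM from 26 counts (ratio 0.876). Also for Ccnd2, CO mouse 4 was the highest of its group at 522.8 CPM from 498 counts (ratio 0.781). For Cdkn1c, FO mouse 5 was at 0 CPM with 0 counts (ratio 0.762). FO mouse 3 had the highest Rn45s share of all mice, 87.0%, and CO mouse 4 the lowest, 21.8%, and the part of that share in the 2 Ccnd2 values was not tested.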

How the results depend on the processing

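The number of genes called was 71, and became 36 with library size alone as the scaling, 587 over genes with any count, 15 with at least 10 counts in every mouse, and 54 to 154 when each mouse was left out, the highest without FO mouse 2. Of the 9 G1 genes other than Ccnd1, 1 was called (Ccnd3), and 0 with DESeq2, with at least 10 counts in every mouse, with the replicate block or without FO mouse 2 and CO mouse 5, the 2 libraries richest in Malat1. Leaving out 1 mouse gave 0 (without FO mouse 2) to 2 (without CO mouse 4, Ccnd3 and Cdk4). The list calls, 1 in the filtered fit, became 0 with library size alone, 4 over genes with any count, 0 with at least 10 counts in every mouse, 0 without FO mouse 2 and CO mouse 5, and 0 to 1 when a mouse was left out. Fewer genes or mice enter the stricter filter and the smaller fits, and for the other settings the cause was not tested. Library size alone shifted the median log2 fold change of all genes to -0.55, gave Ccnd1 -1.27, and turned the sign of Cdk4 (-0.16), Cdkn1a (-0.41), Cdkn1b (-0.29) and Rb1 (-0.21), and of the mean log2 CPM difference for Cdkn1a (-0.17), Cdkn1b (-0.072) and Rb1 (-0.049). Without FO mouse 2 and CO mouse 5, Rbl2 became 0.087 and the log2 difference of Cdkn1c over Rb1 became -0.097. When 1 mouse was left out, log2 fold changes spanned 0 for Ccnd2 (-0.37 to 0.11), Cdkn1a (-0.067 to 0.70), Cdkn1c (-0.21 to 0.29) and Rbl2 (-0.44 to 0.12). The differences of mean log2 CPM did so for Ccnd2 (-0.27 to 0.085), Cdkn1a (-0.36 to 0.33), Cdkn1c (-0.44 to 0.14) and Rbl2 (-0.40 to 0.051). In the order of levels, Cdkn1b over Cdkn1c (-0.21 to 0.28) and Cdkn1c over Rb1 (-0.13 to 0.38) spanned 0. Coding length turned Cdkn1a over Cdkn1b (-0.21), Rb1 over Cdk4 (-0.19) and Ccnd3 over Cdk6 (-0.88). The Cdkn1a share of Cip/Kip counts, lower in FO by the mean over mice, was 3.27 percentage points higher with counts summed, and ran from -9.69 to 1.20 with a mouse left out. None of these signs had passed a test.

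The replicate block, in which FO and CO mice of the same number were treated as paired, gave 55 called genes. The numbers did not pair the mice: same-numbered mice had a mean correlation of -0.12 (-0.41 to 0.03) against 0.03 for other pairs, and 0 FO mice correlated best with their own number. With a median of 185996 counts outside Rn45s, depth limits Ccnd3, Cdk6 and the genes of S phase most.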
